A study of Mus musculus with 8 samples.

Results

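The genes described here encode the translation initiation factors eIF1 to eIF6, the proteins that bring an mRNA, the initiator tRNA and the ribosome together. They were chosen by name: every gene whose array name began with Eif and a digit from 1 to 6, without the eIF2 kinases (Eif2ak) and the eIF4E-binding proteins (Eif4ebp), which were used as neighbouring pathway genes. The rule found 50 genes with 116 probes. Of these, 48 genes passed the filter on dim signals (a probe well above background on each array of 1 group or more), out of 13831 genes and unnamed transcripts tested. All 48 were above background on all 8 arrays. The other two were Eif2b3, a subunit of eIF2B, which was above background on 1 array, and Eif2s3y, the Y-linked copy of the eIF2 gamma subunit, which was above background on 0 arrays. Among the 48, 4 are Argonaute genes (Ago1 to Ago4), which the array lists under their old name Eif2c. Argonautes carry small RNAs and are not initiation factors, so they are reported apart from the other 44.

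The cells were Ba/F3, a mouse pro-B line that depends on interleukin 3, made to express FLT3 as wild type or as FLT3/ITD. FLT3 is a growth factor receptor with a tyrosine kinase domain, and the internal tandem duplication (ITD), common in acute myeloid leukaemia, lets it signal without ligand. Total RNA was labelled with Cy3 and measured on 8 Agilent mouse arrays, 1 per sample, in 4 groups of 2: wild type FLT3, wild type FLT3 with Cxcl12, FLT3/ITD, and FLT3/ITD with Cxcl12. Cxcl12 is the chemokine that binds Cxcr4, and the study asked which mRNAs FLT3/ITD and Cxcl12 regulate. All cells had been kept in serum with interleukin 3, were then washed and spent 4 h in serum-free medium with albumin, with 100 ng/ml mouse Cxcl12 or none. Slide 1 carried the first wild type pair and the N51 form of FLT3/ITD. Slide 2 carried the second wild type pair and the N78 form. The ITD form and the slide therefore cannot be told apart, and since the groups sat in 1 order on both slides, neither can group and position. The sources used here do not say how FLT3 was introduced, whether a line was 1 clone, or whether replicates were separate cultures, so p-values measure the spread between these samples only.

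Initiation starts when eIF1, eIF1A, eIF3 and eIF5 gather on the small ribosomal subunit with eIF2, which carries the initiator tRNA in its GTP-bound form and is recharged by eIF2B. The cap-binding complex of eIF4E, the scaffold eIF4G and the helicase eIF4A then loads the subunit onto the mRNA. After the start codon is found, eIF5B joins the large subunit, which eIF6 holds apart until then; eIF5A, despite its name, acts mainly in elongation. In blood cells, growth factor receptors reach this machinery through the mTOR and MAP kinase pathways.

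Levels are log2 of the processed intensity minus the 75th percentile of the array, so that 0 is the brightness of the 75th percentile. That percentile was 937 to 1109 intensity units on slide 1 and 367 to 600.0 on slide 2, and between 49.2 and 55.0% of an array's probes exceeded background clearly. Of 13 Ba/F3 markers, 9 were measured; Ebf1, Igll1, Pax5 and Rag1, which mark the B lineage, were not above background on any array. The 9 mast cell and basophil markers, 8 of them measured, summed to 205 to 359 times the 75th percentile on the 4 wild type arrays and to 45.1 to 135 on the 4 FLT3/ITD arrays, and 3 of them (Mcpt8, Mcpt4 and Cma1) fell. The neutrophil markers, 3 of 6 measured, summed to 28.4 to 76.4 on the wild type and 2.19 to 9.03 on the FLT3/ITD arrays, and 1 of them (Ctsg) fell, while Elane, Ltf and S100a8 were not above background on any array. The Ba/F3 markers summed to 410 to 618 and 264 to 374, and 2 of them (Csf2rb2 and Ptprc) fell. Kit, which marks mast cells, was not above background on any array. The part of these shifts in the results was not tested.

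Of the 48 genes, 5 were higher in FLT3/ITD than in wild type cells when both slides and both Cxcl12 conditions were averaged, and none was lower. They were Eif5a, Eif2s2 (the beta subunit of eIF2), Eif1ad (an eIF1A domain protein), Eif2b5 (the catalytic epsilon subunit of eIF2B) and Eif4g1 (the main cap-complex scaffold). Their increases were 1.63-fold for Eif5a, 1.70-fold for Eif2s2, 1.75-fold for Eif1ad, 1.66-fold for Eif2b5 and 1.66-fold for Eif4g1. In limma with Benjamini-Hochberg adjustment over all genes, 5 of 48 members (10.4%) passed an adjusted p of 0.05 with a higher level and 0 with a lower one. Across all genes tested 6.12% passed in either direction, 3.56% higher and 2.56% lower. The mean difference was above 0 in 41 of the 48 (39 with quantile normalization, 44 with median scaling) and below 0 in 7. Its median was 0.29 log2 against -0.01 over all genes, and 0.18 against -0.01 with quantile normalization. An unadjusted p under 0.05 was found for 19 members (39.6%), against 26.2% of all genes. Among genes with a mean level of 2 or more, the median difference was 0.33 over 41 members and 0.08 over 4481 genes. None of the 48 passed with normexp background correction, with no filter on dim probes, with no intensity trend or with no slide block, 3 passed with the mean of a gene's probes, and 8 passed with median scaling, which moved the all-gene median to 0.12 and the higher share of all calls from 58.2% (492 higher, 354 lower) to 75.4% (990 higher, 323 lower). Leaving out single arrays gave 0 to 6 passing members: 0 without either wild type Cxcl12 array or without the slide 2 array of either untreated group, 2 without the slide 1 and 3 without the slide 2 array of FLT3/ITD with Cxcl12.

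**Figure D1:**
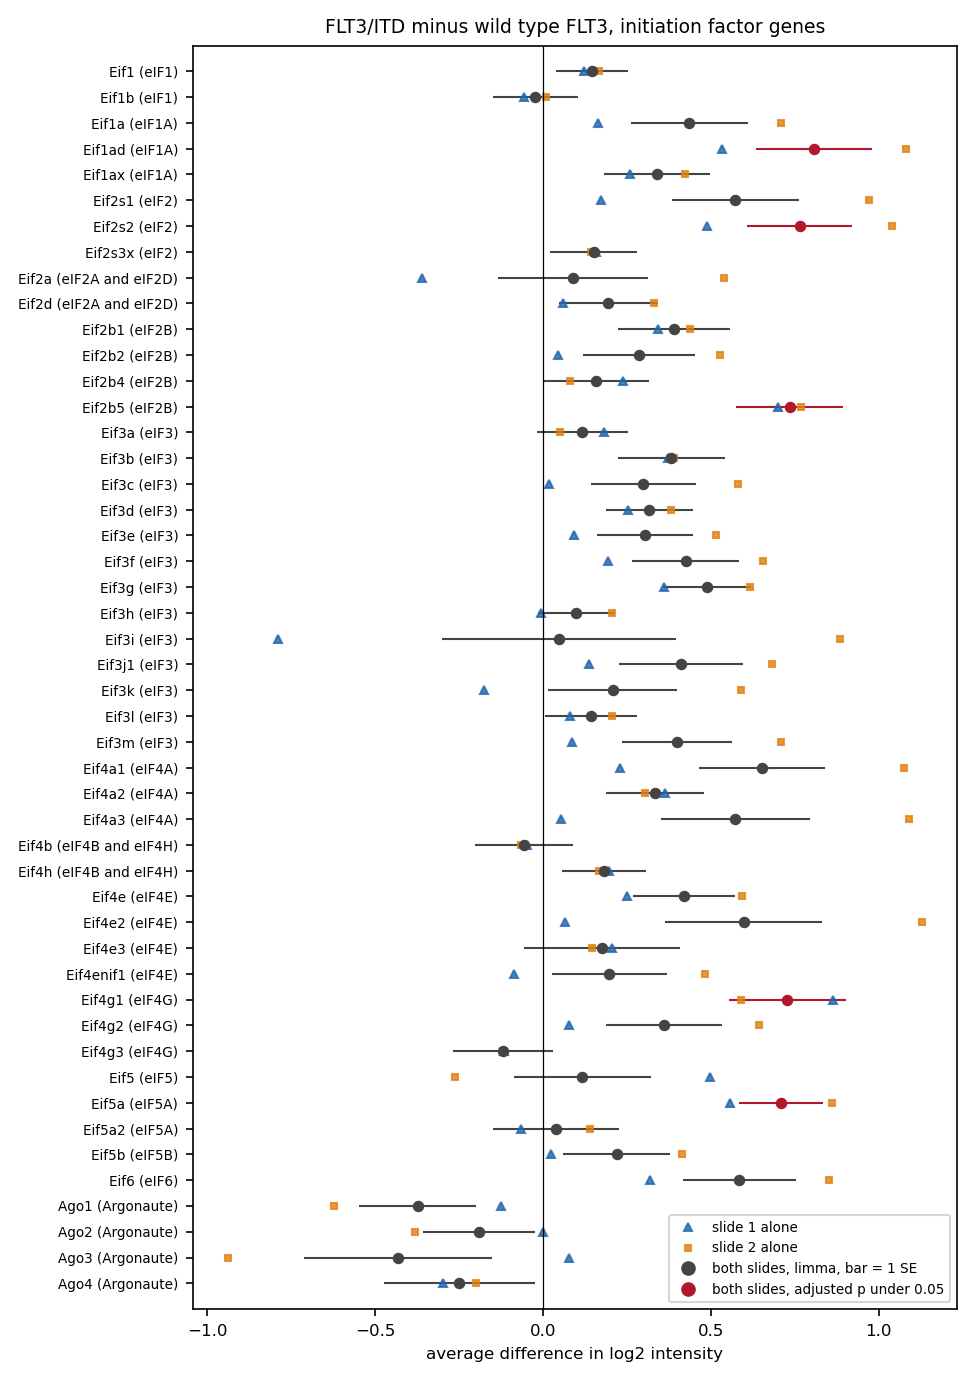
Average difference in log2 intensity between FLT3/ITD and wild type FLT3 for the 48 genes, in order of factor. Round points are the fit to all 8 arrays with 1 SE, red where the adjusted p is under 0.05; triangles and squares are the slide 1 and slide 2 differences alone (2 arrays against 2 each). The 5 red genes lie between 0.71 and 0.81, and the 4 Argonaute genes lie below 0.

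The promoters of 4 of the 5 genes that rose are shown, with that of Eif4a1, which did not pass and was added by name. Each is the 250 bases before the most upstream RefSeq start (build GRCm38.p6), written 5′ to 3′ on the strand of the gene. Capitals mark CACGTG, the canonical E-box that MYC and related factors bind, which reads the same on both strands. No window is shown for Eif1ad, since that window overlaps another gene. The Eif1ad window held no CACGTG, so of the 5 genes that rose only Eif4g1 held it.
Eif5a, chr11:69921959-69922208, minus strand: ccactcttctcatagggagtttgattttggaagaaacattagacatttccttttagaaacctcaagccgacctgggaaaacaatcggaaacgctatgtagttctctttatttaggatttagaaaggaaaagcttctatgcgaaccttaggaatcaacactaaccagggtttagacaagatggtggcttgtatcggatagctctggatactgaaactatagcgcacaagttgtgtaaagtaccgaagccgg
Eif2s2, chr2:154892907-154893156, minus strand: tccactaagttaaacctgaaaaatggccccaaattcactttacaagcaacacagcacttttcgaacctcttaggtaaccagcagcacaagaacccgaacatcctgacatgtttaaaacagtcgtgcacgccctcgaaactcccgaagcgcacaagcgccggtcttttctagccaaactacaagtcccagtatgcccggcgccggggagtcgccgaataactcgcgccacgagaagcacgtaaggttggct
Eif2b5, chr16:20498567-20498816, plus strand: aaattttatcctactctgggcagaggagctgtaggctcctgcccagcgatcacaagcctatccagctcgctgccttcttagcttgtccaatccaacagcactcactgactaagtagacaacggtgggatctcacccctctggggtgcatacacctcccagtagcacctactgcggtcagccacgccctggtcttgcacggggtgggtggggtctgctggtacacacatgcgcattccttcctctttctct
Eif4g1, chr16:20672477-20672726, plus strand: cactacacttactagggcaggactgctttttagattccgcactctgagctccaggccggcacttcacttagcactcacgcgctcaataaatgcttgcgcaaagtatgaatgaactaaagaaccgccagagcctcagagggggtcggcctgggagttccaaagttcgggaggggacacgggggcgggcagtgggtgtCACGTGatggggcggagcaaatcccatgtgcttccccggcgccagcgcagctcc
Eif4a1, chr11:69672424-69672673, minus strand: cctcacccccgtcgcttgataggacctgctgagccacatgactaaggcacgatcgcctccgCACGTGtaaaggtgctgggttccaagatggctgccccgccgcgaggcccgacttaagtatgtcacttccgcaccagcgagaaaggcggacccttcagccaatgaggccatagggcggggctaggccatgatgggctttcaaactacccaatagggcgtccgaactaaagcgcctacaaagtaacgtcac
The hexamer began 54 bases before the start of Eif4g1 and 189 before that of Eif4a1, and was not found in the other 3 windows shown. Of the 48 genes, 40 matched the promoter table, and 7 of them (17.5%) held the hexamer, against 1633 of 27025 genes (6.04%). The other 5 were Eif1b, Eif3f, Eif3k, Eif4h and Eif5a2. The member windows were richer in G and C, with a median of 61.6% against 52%, and the part of base composition in this share was not tested. The 27025 are all genes of the promoter table, with no filter on signal, whereas the members had passed the filter on dim signals. The part of that unlike choice was not tested either. The median average ITD difference was 0.21 for the 7 genes with the hexamer and 0.30 for the 33 without it. These counts rest on the most upstream start. With any listed start, 9 of the 40 (22.5%) held the hexamer, against 6.86% of all genes. A match is a description of the letters and not a binding site.

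In the values by array that follow, the 4 numbers for a slide are in the order wild type, wild type with Cxcl12, FLT3/ITD and FLT3/ITD with Cxcl12. Differences are FLT3/ITD minus wild type with their SE from the fit of all 8 arrays, and n is 4 arrays against 4. Gene pairs with close copies (Eif1 and Eif1b, Eif1a and Eif1ax, Eif4a1 and Eif4a2, Eif5a and Eif5a2) may share signal through their probes, which was not tested.

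eIF1 and eIF1A keep the scanning ribosome open and set how strictly it chooses the start codon. Of the 5 genes of this group, 1 rose, Eif1ad, which encodes an eIF1A domain protein. The other 4 (Eif1, Eif1b, Eif1a and Eif1ax) did not pass. Eif1 levels were 7.15, 7.23, 7.24 and 7.39 on slide 1 and 7.35, 7.47, 7.66 and 7.50 on slide 2, a difference of 0.14 (SE 0.11, adjusted p = 0.43). Eif1b, its close copy, read 4.88, 4.56, 4.67 and 4.65 on slide 1 and 4.39, 4.26, 4.37 and 4.30 on slide 2, a difference of -0.02 (SE 0.13, adjusted p = 0.93). For Eif1 both FLT3/ITD arrays were above both wild type arrays within each slide, and the groups overlapped between slides; for Eif1b they overlapped within each slide. Eif1ad, which shares the fold of eIF1A, read 2.01, 2.46, 2.54 and 3.0 on slide 1 and 1.79, 2.24, 3.07 and 3.13 on slide 2. All 4 FLT3/ITD arrays lay above all 4 wild type arrays, and the difference was 0.81 (SE 0.17, adjusted p = 0.032). Its second probe, at chr19:5371355-5371414 (mm9), gave 0.03, against 0.81 for the probe at chr19:5368908-5369950 that stood for the gene, so the increase was seen by 1 of its 2 probes. Eif1a read 2.53, 3.1, 2.51 and 3.45 on slide 1 and 1.21, 1.90, 2.0 and 2.53 on slide 2, a difference of 0.44 (SE 0.17, adjusted p = 0.15). Here each Cxcl12 array was higher than its untreated partner. Eif1ax, the X-linked eIF1A gene, differed by 0.34 (adjusted p = 0.21).

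eIF2 is the trimer that delivers the initiator tRNA, and its alpha subunit is the site of stress phosphorylation. Of its 3 measured subunits 1 rose, and all 3 had differences above 0. Eif2s2, the beta subunit, read 5.23, 4.75, 5.57 and 5.4 on slide 1 and 3.85, 3.68, 4.91 and 4.70 on slide 2. Within each slide both FLT3/ITD arrays were above both wild type arrays, and the difference was 0.76 (SE 0.16, adjusted p = 0.030). Between slides the groups overlapped, since slide 2 read lower throughout. Eif2s1, the alpha subunit, read 4.59, 4.70, 4.74 and 4.91 on slide 1 and 2.60, 2.94, 3.75 and 3.73 on slide 2, a difference of 0.57 (SE 0.19, adjusted p = 0.10). Slide 2 carried most of that difference, with 0.97 against 0.17 on slide 1. Eif2s3x, the X-linked gamma subunit that binds GTP, read 4.21, 4.08, 4.33 and 4.27 on slide 1 and 3.72, 3.5, 3.86 and 3.65 on slide 2, a difference of 0.15 (SE 0.13, adjusted p = 0.50). The Y-linked copy Eif2s3y stayed between -7.64 and -6.36 on the 8 arrays, under background.

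eIF2B recharges eIF2 with GTP, and 4 of its 5 subunits were measured; 1 rose and all 4 differences were above 0. Eif2b5, the exchange factor's catalytic subunit, read 1.96, 1.70, 2.40 and 2.66 on slide 1 and 2.07, 2.28, 3.04 and 2.85 on slide 2. All FLT3/ITD arrays were above all wild type arrays, the slides gave 0.70 and 0.77, and the difference was 0.73 (SE 0.16, adjusted p = 0.034). It rests on the gene's only kept probe, at chr16:20507091-20507150 (mm9). Eif2b4, the delta subunit, read 3.62, 3.73, 3.53 and 4.30 on slide 1 and 3.81, 3.94, 3.93 and 3.98 on slide 2, a difference of 0.16 (SE 0.16, adjusted p = 0.56). Eif2b1 and Eif2b2, the alpha and beta subunits, differed by 0.39 and 0.29 (adjusted p = 0.18 and 0.31). eIF2A and eIF2D can place initiator tRNA without eIF2. Eif2a read 3.43, 3.24, 3.37 and 2.59 on slide 1 and 0.87, 0.82, 1.41 and 1.36 on slide 2, a difference of 0.09 (SE 0.22, adjusted p = 0.83). Its slides pointed opposite ways, with -0.36 on slide 1 and 0.54 on slide 2. Eif2d read 2.19, 1.98, 2.28 and 2.0 on slide 1 and 2.04, 1.84, 2.44 and 2.09 on slide 2, a difference of 0.20 (SE 0.15, adjusted p = 0.44).

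eIF3, the largest factor, forms the platform on the small subunit that the other factors and the mRNA bind. None of its 13 measured subunits passed, yet the difference was above 0 in 13 of 13 (11 of 13 with quantile normalization). The median was 0.30 (0.17 with quantile normalization), with a range from 0.05 to 0.49. Eif3g, an RNA-binding subunit at the edge of the complex, was the largest: it read 6.65, 6.62, 6.72 and 7.27 on slide 1 and 6.13, 6.28, 6.79 and 6.85 on slide 2. All 4 FLT3/ITD arrays were above all 4 wild type arrays, and the difference was 0.49 (SE 0.13, adjusted p = 0.060). The core subunits that hold the octamer together gave 0.12 for Eif3a and 0.30 for Eif3c, and the scaffold subunit Eif3b gave 0.38. Eif3i, a subunit shaped as a propeller that packs against Eif3b, read 4.61, 4.34, 4.30 and 3.07 on slide 1 and 3.05, 3.13, 3.93 and 4.02 on slide 2. Its difference was -0.79 on slide 1 and 0.89 on slide 2, which averaged to 0.05 (SE 0.35, adjusted p = 0.95). On slide 1 the low value was that of FLT3/ITD with Cxcl12. The subunits Eif3k, Eif3l, Eif3h and Eif3m gave 0.21, 0.14, 0.10 and 0.40. Slide 1 alone gave a median of 0.09 for the 13 subunits and slide 2 gave 0.58.

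**Figure D2:**
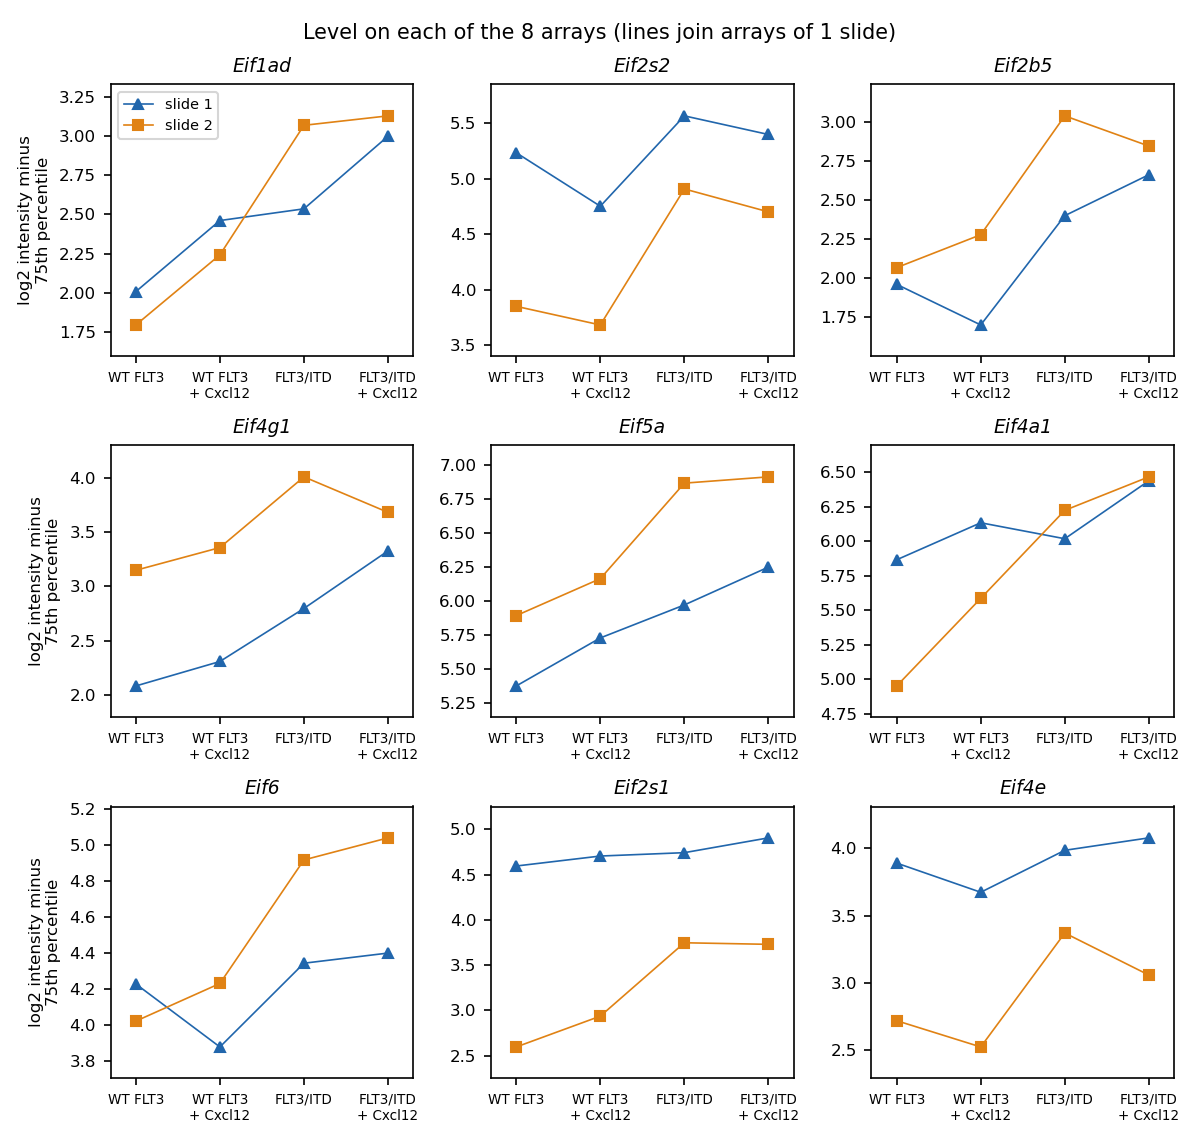
Levels (log2 intensity minus the array's 75th percentile) of 9 genes in the 4 groups, with triangles for slide 1 and squares for slide 2; lines join the 4 arrays of 1 slide. The top 5 panels in reading order are the genes that rose; Eif1ad and Eif2b5 show no overlap between FLT3/ITD and wild type arrays, while in Eif2s2 the slides lie apart by more than the groups.

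eIF4A unwinds the leader of the mRNA, and none of its 3 genes passed, with all 3 differences above 0. Eif4a1, the main helicase, read 5.87, 6.13, 6.02 and 6.44 on slide 1 and 4.95, 5.59, 6.22 and 6.47 on slide 2, a difference of 0.65 (SE 0.19, adjusted p = 0.073). On slide 1 the FLT3/ITD array without Cxcl12 lay below the wild type array with it; on slide 2 both FLT3/ITD arrays were above both wild type arrays, by 1.08 on average. Its 3 probes gave 0.65, 0.59 and 0.39. Eif4a2 and the exon junction protein Eif4a3 differed by 0.33 and 0.57 (adjusted p = 0.19 and 0.14). eIF4B and eIF4H assist the helicase. Eif4b read 3.39, 3.26, 3.42 and 3.14 on slide 1 and 3.66, 3.96, 3.73 and 3.75 on slide 2, a difference of -0.06 (SE 0.15, adjusted p = 0.84). Its other kept probes gave 0.10 and 0.36. Eif4h read 5.99, 5.77, 5.96 and 6.20 on slide 1 and 5.68, 5.72, 5.94 and 5.80 on slide 2, a difference of 0.18 (SE 0.13, adjusted p = 0.39). Within slides the groups overlapped for Eif4b on both and for Eif4h on slide 1.

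eIF4E binds the cap and is the member held in check by the eIF4E-binding proteins. None of the 4 genes of this group passed. Eif4e read 3.89, 3.67, 3.98 and 4.08 on slide 1 and 2.72, 2.53, 3.37 and 3.06 on slide 2, a difference of 0.42 (SE 0.15, adjusted p = 0.13). Within each slide the FLT3/ITD arrays were the higher pair, and both of its probes gave a like difference, 0.42 and 0.41. Eif4e2, the homologue 4EHP that blocks the cap without recruiting eIF4G, read 3.06, 3.39, 3.03 and 3.56 on slide 1 and 2.53, 3.29, 4.00 and 4.08 on slide 2. Its difference of 0.60 (SE 0.23, adjusted p = 0.15) came mainly from slide 2, with 1.13 against 0.07. Eif4e3 differed by 0.18 and Eif4enif1, the transporter of eIF4E, by 0.20.

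eIF4G is the scaffold that ties the cap complex to eIF3, and 1 of its 3 genes rose. Eif4g1 read 2.09, 2.31, 2.80 and 3.33 on slide 1 and 3.15, 3.36, 4.01 and 3.68 on slide 2. Within each slide both FLT3/ITD arrays were the higher pair, with 0.86 on slide 1 and 0.59 on slide 2, and the difference was 0.73 (SE 0.17, adjusted p = 0.046). The probe at chr16:20689378-20692351 (mm9) stood for the gene, and its second probe gave 0.48. Eif4g2, a homologue that lacks the eIF4E site, read 4.14, 4.37, 4.03 and 4.63 on slide 1 and 3.04, 3.52, 3.88 and 3.97 on slide 2, a difference of 0.36 (SE 0.17, adjusted p = 0.22). Eif4g3, the second full-length scaffold, gave -0.12 on each slide (adjusted p = 0.65), and its other kept probe gave 0.17.

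The late factors act at and after start codon recognition, and 1 of these 5 genes rose. Eif5, which triggers GTP hydrolysis on eIF2, read 4.13, 4.05, 4.19 and 4.99 on slide 1 and 3.75, 4.40, 3.59 and 4.04 on slide 2, a difference of 0.12 (SE 0.20, adjusted p = 0.75). Its slides disagreed in sign, with 0.50 and -0.26, and its other two probes gave -0.26 and -0.58. Eif5b, the GTPase of subunit joining, read 4.57, 4.54, 4.44 and 4.72 on slide 1 and 3.45, 3.29, 3.93 and 3.64 on slide 2, a difference of 0.22 (SE 0.16, adjusted p = 0.42). Eif5a carries the modified amino acid hypusine and helps ribosomes past difficult stretches. It read 5.37, 5.73, 5.97 and 6.25 on slide 1 and 5.89, 6.16, 6.86 and 6.91 on slide 2. Within each slide both FLT3/ITD arrays were above both wild type arrays, and the difference of 0.71 (SE 0.13, adjusted p = 0.018) had the lowest adjusted p of the 48. Its probe lies at chr11:69730729-69730788 (mm9), and the second probe, at chr11:69731453-69731512, gave 1.1. Eif5a2, the second isoform gene, differed by 0.04 (adjusted p = 0.92). Eif6, which keeps free large subunits from joining, read 4.23, 3.88, 4.34 and 4.40 on slide 1 and 4.02, 4.23, 4.92 and 5.04 on slide 2. All FLT3/ITD arrays were above all wild type arrays, with a difference of 0.59 (SE 0.17, adjusted p = 0.073), and its other two probes gave 1.14 and 0.47.

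The 4 Argonaute genes, taken in by their old array names, stood at differences from -0.43 to -0.19 with a median of -0.31 (3 of 4 below 0 with normexp background correction or with the mean of kept probes), and none passed. Ago2, the slicing member, gave 0.00 on slide 1 and -0.38 on slide 2 (adjusted p = 0.51). The other kept probes of Ago2 gave 0.11 and 0.13, above 0, while that of Ago1 gave -0.48. Ago3 gave 0.08 and -0.94 (adjusted p = 0.36). Without the Argonautes, the other 44 genes had a median of 0.31, with 41 above 0 and 3 below: Eif1b, Eif4b and Eif4g3. The other kept probes of Eif4b and Eif4g3 gave differences above 0. Conversely, some genes counted above 0 had a kept probe below 0. These were Eif2a, Eif2s2, Eif2s3x, Eif3a, Eif3d, Eif4enif1, Eif4g2, Eif5 and Eif5b.

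Complete separation of the 4 FLT3/ITD arrays above the 4 wild type arrays was seen for 5 of 48 members, namely Eif1ad, Eif2b1, Eif2b5, Eif3g and Eif6, against 3.25% of all genes. Within slide 1, 17 members had both FLT3/ITD arrays above both wild type arrays (17.7% of all genes) and 3 had them below, Eif3i, Eif3k and Ago4 (22.1% of all genes). Within slide 2, 33 members were above (31% of all genes) and 3 were below, Ago1, Ago2 and Ago3 (27.3% of all genes). The median difference of the 48 was 0.13 on slide 1 and 0.46 on slide 2, and the slide 2 value was the larger in 35 of 48 (72.9%, against 52.9% of all genes). It was above 0 on both slides in 34 of 48 (70.8%, against 30.9%). A test of the difference between slides, with 2 residual degrees of freedom, passed for none of the 48 and for 0.405% of all genes; the lowest adjusted p of a member was 0.14, for Eif3i. Eif4a3, Eif4e2 and Eif4a1 had slide 2 values over 1 and slide 1 values of 0.06, 0.07 and 0.23. Since the N51 form was on slide 1 and the N78 form on slide 2, slide and form cannot be told apart.

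**Figure D3:**
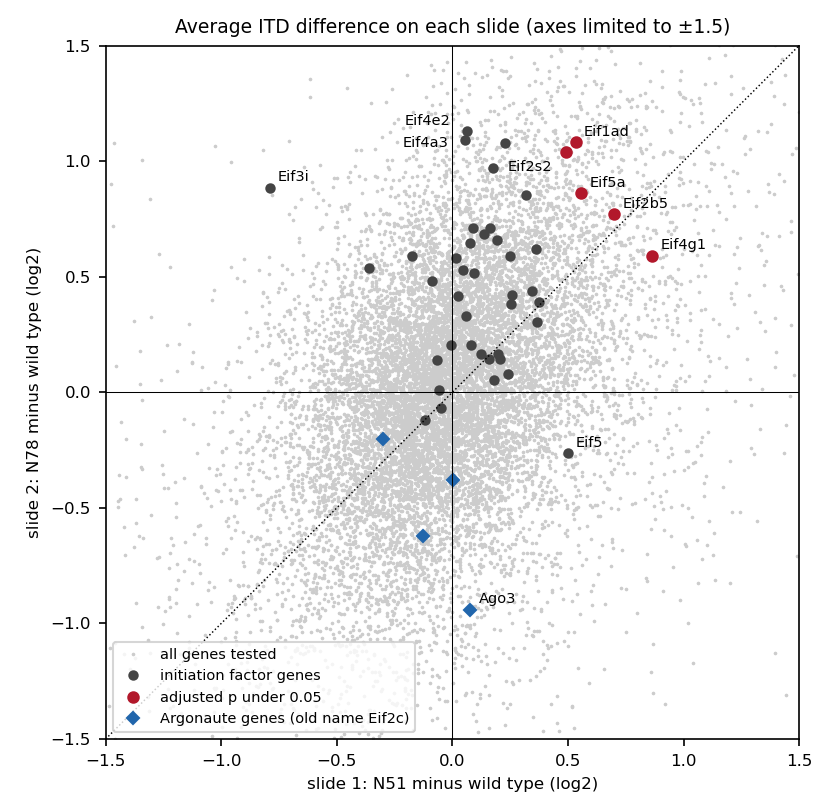
Average ITD difference on slide 1 (N51, x axis) against slide 2 (N78, y axis), log2, for all genes tested (grey), the 44 initiation factor genes (black, red where the adjusted p is under 0.05) and the 4 Argonaute genes (blue); the dotted line marks equal values and genes past 1.5 are outside the frame. Of the 48 genes, 35 lie above the line, and Eif3i, at -0.79 and 0.89, lies far from it.

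Split by Cxcl12, the FLT3/ITD difference had a median of 0.26 without Cxcl12 (39 of 48 above 0) and 0.30 with it (38 of 48 above 0). The all-gene medians were -0.05 and 0.04, and 40 and 38 of the 48 lay above them. With 2 arrays against 2, none of the 48 passed in either comparison, against 0.506% of all genes without Cxcl12 and 0.839% with it in limma; 8 members (16.7%, against 12.3% of all genes) and 9 members (18.8%, against 18.1%) had an unadjusted p under 0.05. Without Cxcl12 the lowest adjusted p was 0.13, for Eif5a, whose difference was 0.78 (SE 0.18). With Cxcl12 it was 0.12, for Eif2s2, whose difference was 0.83 (SE 0.22). Slide 1 gave a median of 0.02 without Cxcl12 and 0.27 with it, and slide 2 gave 0.54 and 0.38.

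Incubation with Cxcl12 was compared with none to ask which mRNAs the chemokine changed. Averaged over both FLT3 forms, 0 of 48 passed in limma, against 0.383% of all genes, and 1 (2.08%, against 14.8% of all genes) had an unadjusted p under 0.05. The median difference was 0.01, with 26 above 0 (10 with normexp background correction) and 22 below, beside 0.01 over all genes. Eif1a had the largest difference: it was 0.68 (SE 0.17), with an adjusted p of 0.13. Its Cxcl12 array was the higher in 4 of 4 pairs, and it was the member with the unadjusted p under 0.05. Among the other initiation factor genes, Eif5 and Eif4e2 gave 0.45 and 0.43 (adjusted p = 0.34 and 0.44), and Eif4a1 gave 0.39 (adjusted p = 0.38). The Argonaute gene Ago3 gave -0.46 (adjusted p = 0.50). Eif3i gave -0.33, Eif2a -0.27, Eif2s2 -0.26 and Eif4e -0.16. In wild type cells alone 0 of 48 passed (0.0651% of all genes), and 1 member (2.08%, against 7.15% of all genes) had an unadjusted p under 0.05. The median there was -0.01, with 23 of 48 above 0, and its sign turned with the processing: 6 were above 0 with normexp (median -0.65) and 35 with median scaling (median 0.12). The all-gene median moved as well, from -0.02 to -0.13 with normexp and 0.11 with median scaling. Above it lay 24 of the 48 as reported, 7 with normexp and 24 with median scaling. In FLT3/ITD cells the median was 0.05 (-0.04 with median scaling), beside 0.04 (-0.05) over all genes, and 0 of 48 passed (0% of all genes). Eif1a and Eif3a, 2 members (4.17%, against 10.5% of all genes), had an unadjusted p under 0.05 there. For Eif3a, a core eIF3 subunit, the difference in FLT3/ITD cells was -0.54 (SE 0.19, adjusted p = 0.40). Its other two kept probes gave 0.07 and 0.37, so the probes disagreed in sign.

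**Figure D4:**
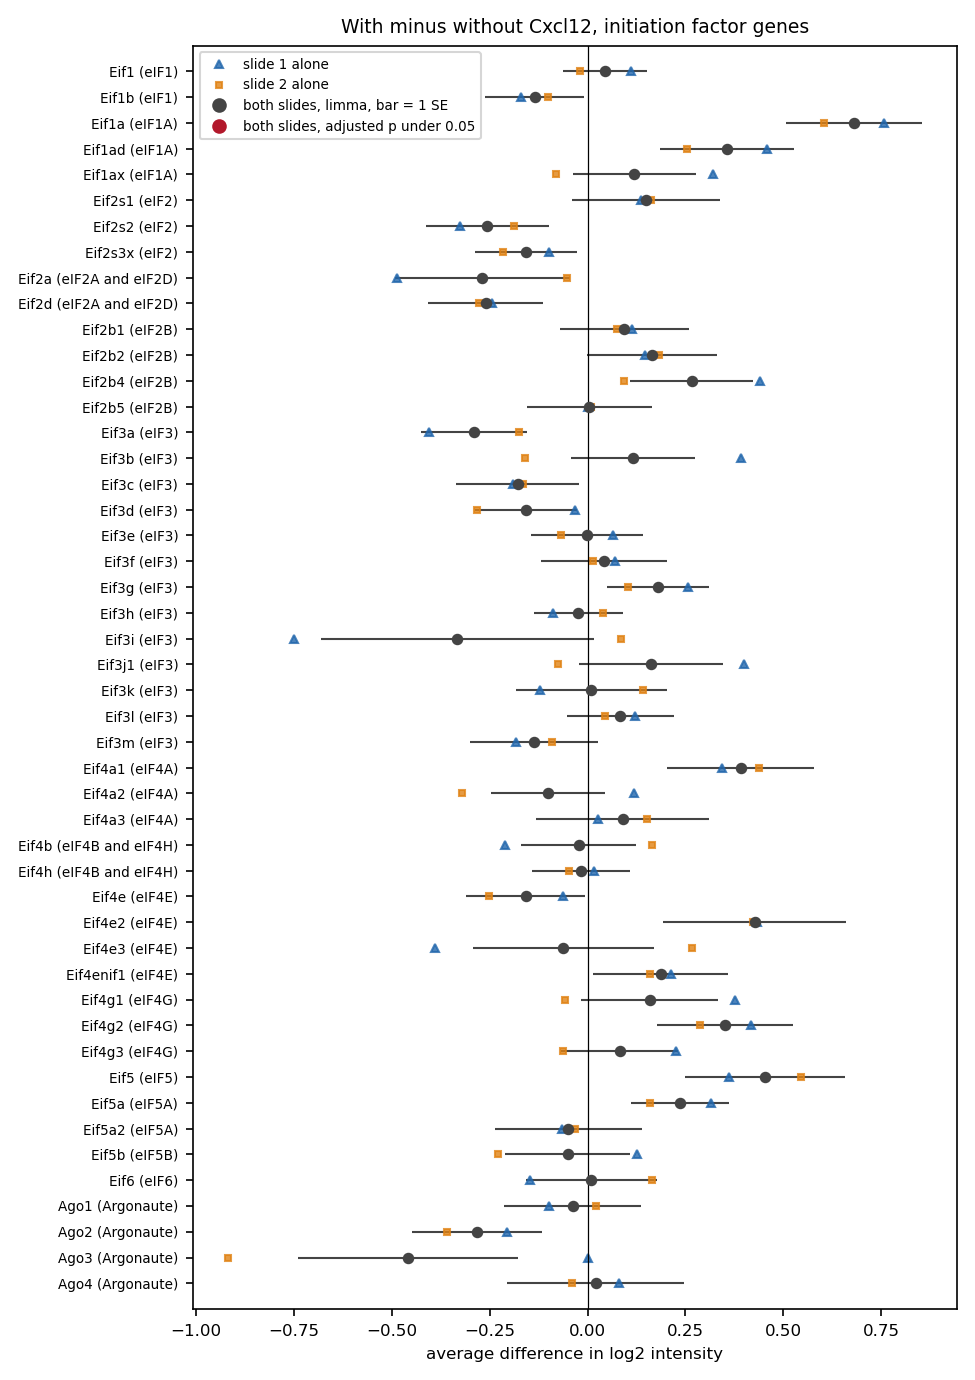
Average difference in log2 intensity between cells with and without Cxcl12 for the same 48 genes; round points are the fit to all 8 arrays with 1 SE, triangles and squares the slides alone. The points lie on both sides of 0, with 26 above it, and Eif1a is the highest at 0.68.

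Whether the response to Cxcl12 differed between the FLT3 forms was tested by the interaction term, which passed for 0 of 48 members and 0% of all genes. The median was -0.01, and the slides gave 0.21 and -0.21: 37 members were above 0 on slide 1 and 10 on slide 2, beside all-gene medians of 0.14 and -0.03. The direction turned with the processing: 43 of 48 were above 0 with normexp (median 0.66) and 9 of 48 with median scaling (median -0.23). The all-gene median moved as well, from 0.06 to 0.18 with normexp and -0.16 with median scaling. Above it lay 19 of the 48 as reported, 42 with normexp and 19 with median scaling. Only Eif4e3 had an unadjusted p under 0.05 (2.08% of members, 1.71% of all genes; adjusted p = 1.0). It read -1.89, -1.97, -1.37 and -2.07 on slide 1 and -2.0, -0.71, -0.84 and -1.59 on slide 2, an interaction of -1.33 (SE 0.46). The interaction was -0.62 on slide 1 and -2.03 on slide 2. The second kept probe of Eif4e3 read -1.86, -1.85, -1.39 and -1.46 on slide 1. On slide 2 that probe read -2.85, -2.30, -2.03 and -2.35, and its interaction was smaller on each slide.

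Of the 48 genes, 16 had 1 kept probe and 32 had several. In 20 of those 32 every kept probe gave the average ITD difference the same sign, and in 12 the signs were mixed. Of the 5 genes that rose, Eif5a, Eif4g1 and Eif1ad had all probes above 0, though the second probe of Eif1ad gave only 0.03. Eif2s2 had 2 of 3 above 0 (0.76 and 0.62), and the remaining probe gave -0.09.

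Genes around the factors were read from lists of the pathway. The eIF4E-binding proteins and the mTOR pathway that controls them had 20 genes measured, of which 2 rose with FLT3/ITD and 0 fell, with a median of 0.13. The counts of these lists stand beside the 3.56% of all genes that rose with FLT3/ITD. These were Eif4ebp1 (0.65, adjusted p = 0.028), which sequesters eIF4E, and Deptor (0.79, adjusted p = 0.028), an inhibitor inside the mTOR complexes. With Cxcl12, 1 of the 20 passed: Ddit4, a brake on mTOR, fell by 1.80 (adjusted p = 0.028). Of the 10 eIF2 kinase, phosphatase and stress genes, 0 passed in either average comparison (median -0.08 with FLT3/ITD). An unadjusted p under 0.05 with FLT3/ITD was found for 4 of the 10, against 26.2% of all genes. Atf4, the transcription factor translated when eIF2 is phosphorylated, gave 0.76 (adjusted p = 0.099). Of 10 accessory initiation factors 1 rose, the ribosome recycling ATPase Abce1 (0.74, adjusted p = 0.039), and the list's median was 0.18. Of 9 elongation and termination genes 1 rose, the release factor Gspt1 (0.68, adjusted p = 0.043), with a median of 0.05. Of 5 poly(A)-binding genes 0 passed (median -0.02). The enzymes that make hypusine on eIF5A gave 0.36 for Dhps and 0.37 for Dohh, and neither passed.

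The cytosolic tRNA synthetases, which charge tRNAs with amino acids, had 20 genes measured. Of these 4 rose (Mars1, Gars, Iars and Vars) and 0 fell, with a median of 0.55, above that of the initiation factors. The 83 ribosomal protein genes had a median of 0.07, and 3 rose (Rps15a, Rpl36al and Rps27l), about the share of all genes that rose (3.56%). Of the MYC genes, Mycn rose by 1.28 (adjusted p = 0.0066) with FLT3/ITD, and Myc gave 0.64 (adjusted p = 0.062). With Cxcl12 Myc rose by 1.22 (adjusted p = 0.036), in a comparison that 0.383% of all genes passed. Any link between the MYC genes and the initiation factor genes was not tested. The difference between the initiation factor medians and those of these lists was not tested.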

How the data were processed

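RNA from 8 Ba/F3 samples was hybridised to 1-colour Agilent mouse arrays. Per the file headers, the deposited processed intensity came background-subtracted from Agilent Feature Extraction (9.5.1.1 on slide 1, 10.7.3.1 on slide 2), with no scaling between arrays. The authors' normalized intensity tables, median-scaled per array, and the deposited foreground and background intensities served as alternatives.

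Control spots were left out, outlier-flagged spots (93 to 203 per array) set to missing, and spots of a probe averaged. A probe well above background on both arrays of a group was kept (21126 of 41174), the brightest per gene. limma 3.58.1 (R 4.3.3) was fitted to 4 group means with the slide as a block and an intensity trend, with 3 residual degrees of freedom, Benjamini-Hochberg adjustment and a threshold of 0.05. The fit was checked on simulated data with independent normal noise, for the size of the differences it returned. That check cannot show how the calls depend on the processing. Names came from the slide 2 files; 13 member probes match the rule by those names and not by the older slide 1 names. Probe coordinates are mm9. The slide pairs the samples: same-slide deviations correlated at 0.73 to 0.88. The small number of arrays limits the precision.

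Genes named with values were the members past a test, those with the largest ITD or Cxcl12 difference of each factor, and 8 always named; Eif3a, Eif4e3 and the other named genes without full values were named after their values were seen. The members and lists were chosen with earlier results of these data known.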

Additional observations from a re-analysis of the deposited data

How the results depend on the processing

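The count of members that passed for the average ITD effect, 5 as reported, was 0 with normexp background correction, 8 with median scaling, 0 with no filter on dim probes, 3 with the mean of kept probes and 0 with no intensity trend. Without the slide as a replicate block it was also 0. No other count of passing members depended on the block. Leaving out 1 array gave 0 to 6 for that count and 0 to 0 for the other comparisons. The members' median for the average ITD effect was 0.67 with normexp, 0.18 with quantile normalization and 0.17 to 0.39 with 1 array left out. For the average Cxcl12 effect the median was -0.27 with normexp, 0.070 with the mean of kept probes and -0.055 to 0.11 with 1 array left out. For ITD with Cxcl12 it was 1.05 with normexp, 0.13 with quantile normalization and 0.27 to 0.40 with 1 array left out. Normexp gave -0.65 for Cxcl12 in wild type cells and 0.66 for the interaction. With 1 array left out, the ITD median without Cxcl12 ran from 0.08 to 0.48, the Cxcl12 median from -0.11 to 0.12 in wild type and from -0.15 to 0.23 in FLT3/ITD cells, and the interaction from -0.20 to 0.23. The causes were not tested. Across all genes the average ITD count was 846 as reported, 360 with normexp, 1313 with median scaling, 179 with no filter, 449 with no trend and 0 with no block. The 5 genes that rose kept a difference above 0 in 17 of 17 settings, and passed in 6 (Eif1ad), 7 (Eif2s2), 8 (Eif2b5), 4 (Eif4g1) and 9 (Eif5a) of them. In the reported fit, with 2 arrays per group, these 5 had average ITD differences of 0.71 to 0.81 log2. The largest difference that did not pass was 0.65, for Eif4a1.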
